A study of Glycine max with 8 samples.

Results

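The genes described here are 8 soybean (Glycine max) loci of red and far-red light signalling, out of 47268 loci that the deposited files list. They were chosen by locus ID, with no threshold on a measured value. They comprise 4 phytochrome A loci, namely E3 (Glyma.19G224200), Glyma.03G227300, E4 (Glyma.20G090000) and Glyma.10G141400, then 2 phytochrome B loci, Glyma.09G035500 and Glyma.15G140000, and the HY5-like factors STF1 (Glyma.08G302500) and STF2 (Glyma.18G117100). The samples were 2-week-old seedlings in 4 groups of 2 RNA-seq libraries, numbered 1 and 2. GmSIN1 over-expressing seedlings (OE) were given NaCl at 150 mM or a mock treatment, each for 6 h, and so were seedlings of the conventional line WEI6823, labelled wild type for GmSIN1 (WT). GmSIN1 encodes a NAC transcription factor. The labels give neither the promoter of the transgene nor the number of transgenic lines nor the hour of harvest, and the level of GmSIN1 itself was not analysed, since its locus could not be found by name among the IDs of the files. For the same reason root and leaf identity could not be checked against marker genes. All seedlings had grown hydroponically under a 16 h photoperiod, and RNA of roots and of leaves was mixed in equal parts, so each value is an average over both organs. In such mixtures, fewer cells of a type and less RNA per cell cannot be told apart.

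Phytochromes are photoreceptors that bind a bilin chromophore and switch between a red-absorbing and a far-red-absorbing form. Phytochrome A is light-labile and mediates responses to far-red and very weak light, whereas phytochrome B is more stable and mediates responses to red light and to shade. In soybean, E3 and E4 are maturity loci that encode phytochrome A proteins and delay flowering in long days, acting through the repressor E1 on FT genes. HY5 of Arabidopsis, the gene that STF1 and STF2 resemble, encodes a bZIP factor that promotes seedling responses to light and is marked for degradation by COP1 in darkness. Soybean is an ancient polyploid, and the 8 loci are treated below as 4 pairs of related copies: E3 with Glyma.03G227300, E4 with Glyma.10G141400, the phytochrome B loci with each other, and STF1 with STF2.

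Library totals were 5980170 to 7199775 expected counts, the estimated read counts that the files give for each gene model. All 8 genes were detected in every library and all 8 passed the abundance filter. Counts were lowest for Glyma.03G227300, with 14.3 to 46.8 per library, where counting alone gives an error of 14.6% to 26.4%. For E4, with 463 to 583 counts per library, that error was 4.14% to 4.65%. These errors cover counting only.

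Per coding length, E4 was the most abundant of the 8 genes and Glyma.03G227300 the least. Levels in FPKM, a unit scaled to coding length and library size and summed here over the models of a locus, averaged 23.1 ± 1.88 for E4 and 18.7 ± 1.98 for its partner Glyma.10G141400 (SD over all 8 libraries). Phytochrome B followed with 16.3 ± 3.02 FPKM for Glyma.09G035500. STF2 had 12.2 ± 4.27, STF1 10.8 ± 3.04 and the other phytochrome B locus, Glyma.15G140000, 10.3 ± 2.08 FPKM. E3 lay well below these at 4.49 ± 1.48 FPKM, and Glyma.03G227300 had 1.58 ± 0.437 FPKM. E4 was above Glyma.10G141400 in 8 of 8 libraries, Glyma.15G140000 above E3 in 8 of 8 and E3 above Glyma.03G227300 in 8 of 8. The middle of the order was not fixed: Glyma.10G141400 exceeded Glyma.09G035500 in 4 of 4 WT libraries but in 1 of 4 OE libraries, and STF1 exceeded Glyma.15G140000 in 4 of 8 libraries. Among all listed loci, mean FPKM placed E4 above 81.6% of them and Glyma.03G227300 above 31.5%.

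**Figure D1:**
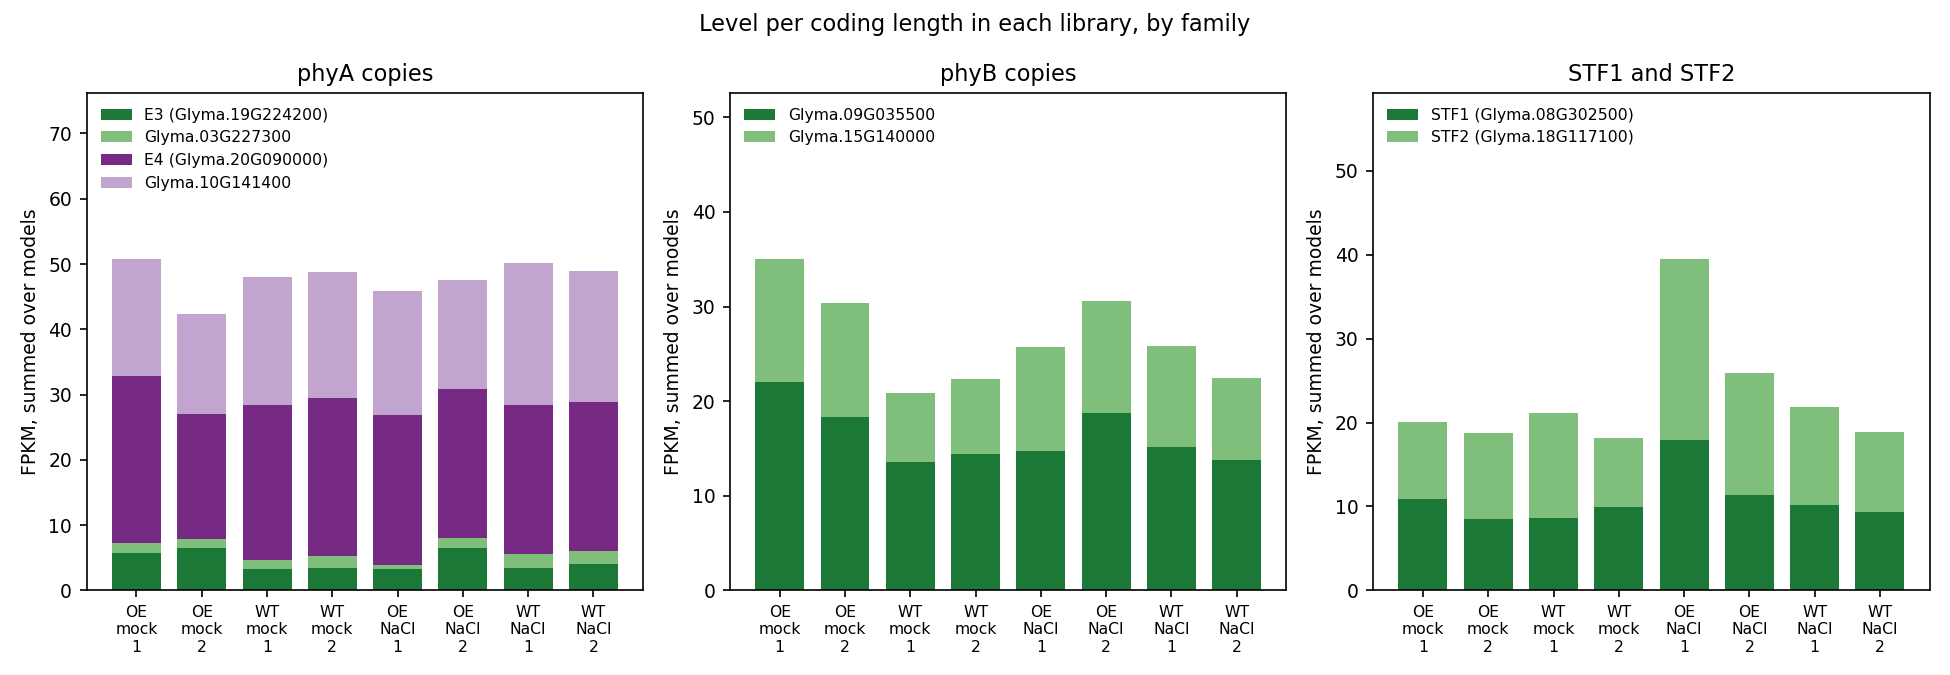
Level per coding length (FPKM, summed over gene models) of the phytochrome A copies, the phytochrome B copies and STF1 with STF2, one stacked bar per library, OE left of WT within each treatment. The phytochrome A bars stay between 42.4 and 50.8 FPKM and are mostly E4 and Glyma.10G141400, while the STF bar of OE NaCl library 1, at 39.5 FPKM, stands above all others.

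Phytochrome A transcripts as a whole varied little. The sum over the 4 loci was 50.8 and 42.4 FPKM in OE mock libraries 1 and 2, against 48.0 and 48.8 FPKM in WT mock. In NaCl it was 45.9 and 47.6 FPKM in OE, against 50.1 and 48.9 FPKM in WT. The groups overlapped in mock, and in NaCl both OE values lay below both WT values by a small margin. E4 made up 45.1% to 50.6% of this sum in OE libraries and 45.7% to 49.8% in WT libraries. The share of E3 was 7.06% to 15.2% in OE libraries and 6.70% to 8.18% in WT libraries.

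E3, the phytochrome A gene of a maturity locus, stood higher in 3 of the 4 OE libraries than in any WT library. Its level was 19.7 and 22.5 CPM (counts scaled to the library total) in OE mock libraries 1 and 2, against 11.3 and 11.9 CPM in WT mock. In NaCl it was 11.3 and 22.8 CPM in OE libraries 1 and 2, against 11.7 and 14.0 CPM in WT. The mock groups did not overlap, whereas the value of OE NaCl library 1 was below that of every WT library by a small margin. The fitted log2 fold change in mock was 0.96 with a standard error of 0.38 (95% interval 0.05 to 1.87), and its adjusted p was 0.148 in edgeR's quasi-likelihood test over all loci. In NaCl it was 0.46 (standard error 0.38, edgeR adjusted p = 0.473), and without OE NaCl library 1 it was 0.93 (adjusted p = 0.0445), whereas without OE NaCl library 2 it was -0.23 (adjusted p = 0.605).

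For Glyma.03G227300, the partner of E3, no higher level in OE was seen. It had 4.67 and 4.32 CPM in OE mock libraries 1 and 2, against 4.398 and 5.42 CPM in WT mock. In NaCl it had 2.13 and 4.57 CPM in OE, against 6.49 and 5.87 CPM in WT. The groups overlapped in mock, and in NaCl both OE values lay below both WT values, that of library 1 farthest. The log2 fold change in NaCl was -0.84 (standard error 0.44, edgeR adjusted p = 0.263), and it was -0.33 (adjusted p = 0.495) with OE NaCl library 1 left out, against -1.63 (adjusted p = 0.0473) with library 2 left out.

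Of the pair's FPKM, E3 therefore held a larger part in OE than in WT. That part was 78.4% and 81.8% in OE mock libraries 1 and 2 and 82.0% and 81.1% in OE NaCl, against 68.8% and 65.3% in WT mock and 60.8% and 67.1% in WT NaCl. No OE library overlapped with a WT library. By CPM, 39.2% of all tested loci likewise had no overlap between the 4 OE and the 4 WT libraries. That percentage is of single loci and not of pair shares. OE NaCl library 1, in which both copies were low, had the highest share, from 14.3 counts of Glyma.03G227300 (counting error 26.4%). The means were 80.8% ± 1.67 in OE and 65.5% ± 3.46 in WT (SD, n = 4 each), a difference of 15.4 percentage points. A two-sided exact permutation test of the 4 OE against the 4 WT libraries gave p = 0.0286, the smallest that 4 against 4 can give. Adjusted over the 4 pairs, this permutation p was 0.114, so the difference did not pass the adjusted threshold of 0.05. A single pair at that smallest p cannot pass after this adjustment on its own, so the miss does not tell whether the shares differ. The difference was 13.1 points in mock and 17.6 points in NaCl. The test takes the 4 OE libraries as independent, which the labels do not state. Across loci, deviations from group means correlated at r = 0.742 between OE mock and OE NaCl libraries of the same number. The permutation p may therefore be too small, here and for the shares of the other pairs. The counting may also divide reads between the copies.

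**Figure D2:**
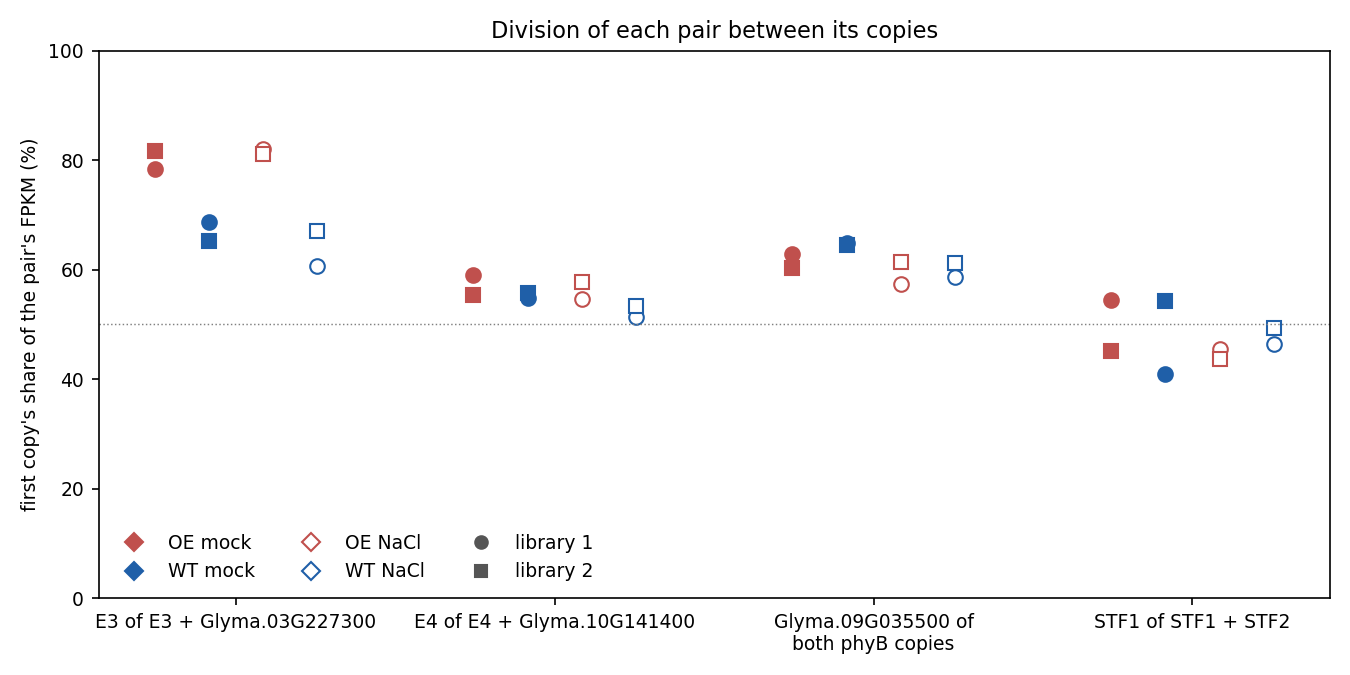
Share (%) of each pair's FPKM held by its first-named copy, one point per library, filled for mock and open for NaCl, circles for library 1 and squares for library 2. E3 holds 78.4% to 82.0% of its pair in OE libraries and 60.8% to 68.8% in WT libraries, while OE and WT points overlap in the other pairs.

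E4, the most abundant phytochrome A gene, was almost level across the series. It had 89.0 and 66.1 CPM in OE mock libraries 1 and 2, against 82.3 and 84.2 CPM in WT mock. In NaCl it had 79.5 and 79.2 CPM in OE, against 79.4 and 79.4 CPM in WT. The OE mock libraries lay on either side of the WT values, and in NaCl all 4 libraries were nearly equal. Log2 fold changes between genotypes were -0.03 in mock (95% interval -0.44 to 0.39) and 0.02 in NaCl (-0.39 to 0.44), and these intervals were narrower than those of any of the 8 genes except its partner. Around its own mean over the 8 libraries, E4 varied by 0.114 (root mean square, log2 of CPM + 1). Only 5.86% of the 4953 loci whose mean CPM lay within 2-fold of that of E4 varied less.

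Glyma.10G141400, the partner of E4, was slightly lower in every OE library than in any WT library. It had 65.6 and 56.7 CPM in OE mock libraries 1 and 2 and 68.5 and 61.4 CPM in OE NaCl, against 70.04 and 70.9 CPM in WT mock and 79.6 and 73.5 CPM in WT NaCl. Although the groups did not overlap, the differences were small, with log2 fold changes of -0.12 in mock (edgeR adjusted p = 0.632) and -0.22 in NaCl (adjusted p = 0.418). Groups of 4 OE against 4 WT libraries failed to overlap at 39.2% of all tested loci and at 2 of these 8 genes, Glyma.10G141400 and Glyma.15G140000. E4 held 54.7% to 59.0% of its pair in OE libraries and 51.4% to 55.8% in WT libraries, and these ranges overlapped (two-sided exact permutation p = 0.143, adjusted 0.286). The sum of the pair gave log2 fold changes of -0.07 in mock and -0.09 in NaCl.

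**Figure D3:**
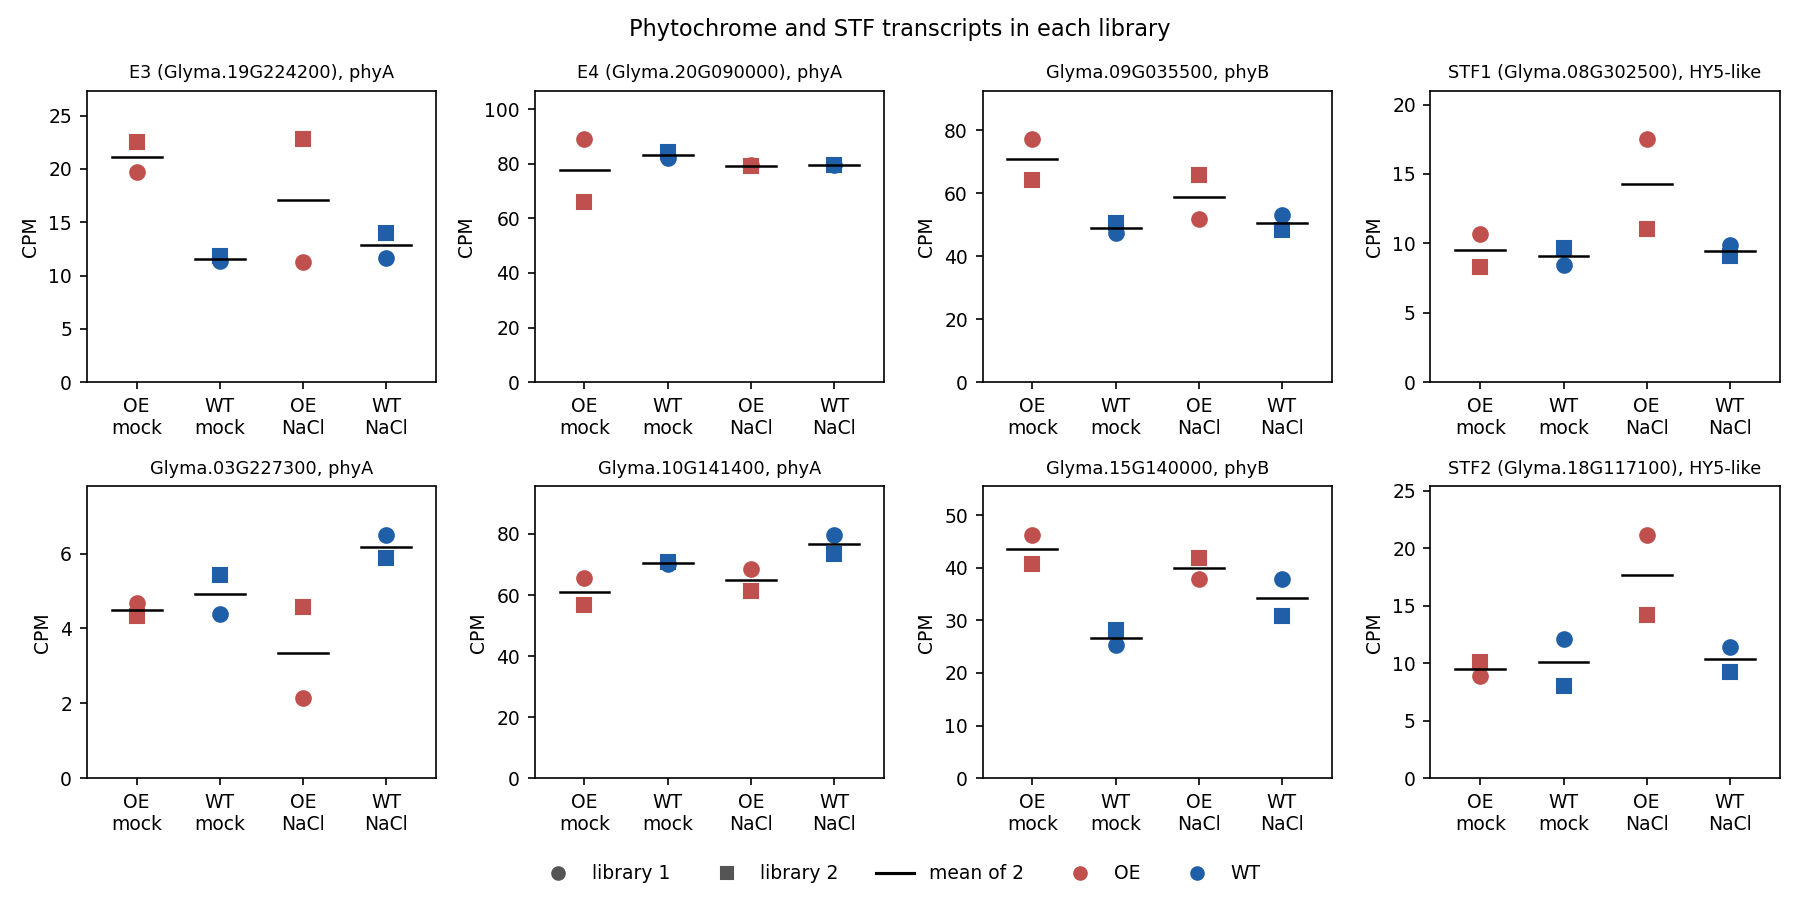
CPM of each of the 8 genes in every library, with circles for library 1, squares for library 2 and a line at the mean of each group of 2, OE left of WT within each treatment. E3 and the phytochrome B loci are higher in OE mock than in WT mock, STF1 and STF2 are highest in OE NaCl, and E4 stays between 79.2 and 84.2 CPM except in OE mock.

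Both phytochrome B loci had higher values in OE mock seedlings than in WT mock seedlings. Glyma.09G035500 had 77.1 and 64.3 CPM in OE mock libraries 1 and 2, against 47.4 and 50.6 CPM in WT mock. Glyma.15G140000 had 46.2 and 40.8 CPM in OE mock, against 25.3 and 28.2 CPM in WT mock. At neither locus did the mock groups overlap. In NaCl the gap was narrower: Glyma.09G035500 had 51.7 and 65.7 CPM in OE, against 53.0 and 48.3 CPM in WT, with overlap. Glyma.15G140000 had 37.9 and 41.9 CPM in OE NaCl, against 37.8 and 30.8 CPM in WT NaCl, where OE NaCl library 1 and WT NaCl library 1 were about equal.

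The fitted log2 fold change in mock was 0.78 with a standard error of 0.20 for Glyma.15G140000 and 0.61 with a standard error of 0.21 for Glyma.09G035500. Neither passed edgeR's test over all loci, with adjusted p = 0.0582 for Glyma.15G140000 and 0.114 for Glyma.09G035500, while DESeq2 called Glyma.15G140000 (adjusted p = 0.0307). In NaCl both log2 fold changes were 0.25 (adjusted p = 0.465 for Glyma.15G140000 and 0.492 for Glyma.09G035500). Summing the pair, which does not depend on how reads were divided between its copies, gave 0.67 in mock (edgeR adjusted p = 0.0869; DESeq2 adjusted p = 0.0428) and 0.25 in NaCl (edgeR adjusted p = 0.478). In NaCl these values depended on single libraries: the sum gave 0.44 and 0.0150 when OE NaCl libraries 1 and 2 were left out in turn, and 0.15 without WT NaCl library 2. Glyma.09G035500 gave 0.47 and -0.0317 when OE NaCl libraries 1 and 2 were left out in turn. Glyma.15G140000 gave 0.38 and 0.0808 without OE NaCl libraries 1 and 2, and 0.40 and 0.11 without WT NaCl libraries 1 and 2. Whether the genotype difference itself changed with NaCl was tested as the interaction, which was -0.54 for Glyma.15G140000 and -0.36 for Glyma.09G035500 and had an edgeR adjusted p of 1 for each (0% of all loci passed, and 0.679% had an unadjusted p under 0.05). Glyma.09G035500 held 57.4% to 62.8% of the pair's FPKM in OE libraries and 58.6% to 64.8% in WT libraries, and the ranges overlapped (two-sided exact permutation p = 0.400, adjusted 0.533).

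Phytochrome A exceeded phytochrome B by a smaller factor in OE than in WT. The ratio of summed phytochrome A to summed phytochrome B FPKM was 1.45 and 1.40 in OE mock libraries 1 and 2, against 2.30 and 2.18 in WT mock. In NaCl it was 1.79 and 1.56 in OE, against 1.94 and 2.18 in WT. All 4 OE values lay below all 4 WT values. By CPM, 39.2% of all tested loci likewise had no overlap between the 4 OE and the 4 WT libraries. This ratio is taken within each library and does not depend on library scaling, but it was formed after the values of the loci were known and is given without a test.

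STF1 and STF2, the HY5-like factors, differed little between genotypes in mock and were highest in OE seedlings given NaCl. STF1 had 10.7 and 8.31 CPM in OE mock libraries 1 and 2, against 8.45 and 9.66 CPM in WT mock, and STF2 had 8.87 and 10.1 CPM in OE mock, against 12.1 and 8.05 CPM in WT mock. The groups overlapped at both genes. In NaCl, STF1 had 17.5 and 11.1 CPM in OE, against 9.86 and 9.09 CPM in WT. STF2 had 21.1 and 14.1 CPM in OE NaCl, against 11.4 and 9.27 CPM in WT NaCl. Both OE NaCl libraries lay above both WT NaCl libraries at each gene, library 1 by more.

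Against OE mock, the OE NaCl values were also higher without overlap at both genes. In WT the NaCl and mock values overlapped at both. The log2 fold change of NaCl over mock in OE was 0.81 with a standard error of 0.30 for STF2 and 0.52 with a standard error of 0.25 for STF1, and that of their sum was 0.68. Without OE NaCl library 1 it was 0.25 for STF1 and 0.43 for the sum. None of these passed edgeR's test over all loci, the adjusted p being 1 for each, with an unadjusted p of 0.0307 for STF2 and 0.0726 for STF1. OE NaCl over WT NaCl gave 0.78 for STF2 (adjusted p = 0.149), 0.61 for STF1 (adjusted p = 0.170) and 0.70 for their sum (adjusted p = 0.0999). Without OE NaCl library 1 the sum gave 0.45 (adjusted p = 0.153) and STF1 0.33 (adjusted p = 0.352), while without OE NaCl library 2 the sum gave 0.90 (adjusted p = 0.0438). The interaction was 0.76 for STF2 and 0.47 for STF1, with an adjusted p of 1 for each, so a salt response that differed between the genotypes was not shown. STF1 held 43.8% to 54.5% of the pair's FPKM in OE libraries and 41.0% to 54.3% in WT libraries.

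**Figure D4:**
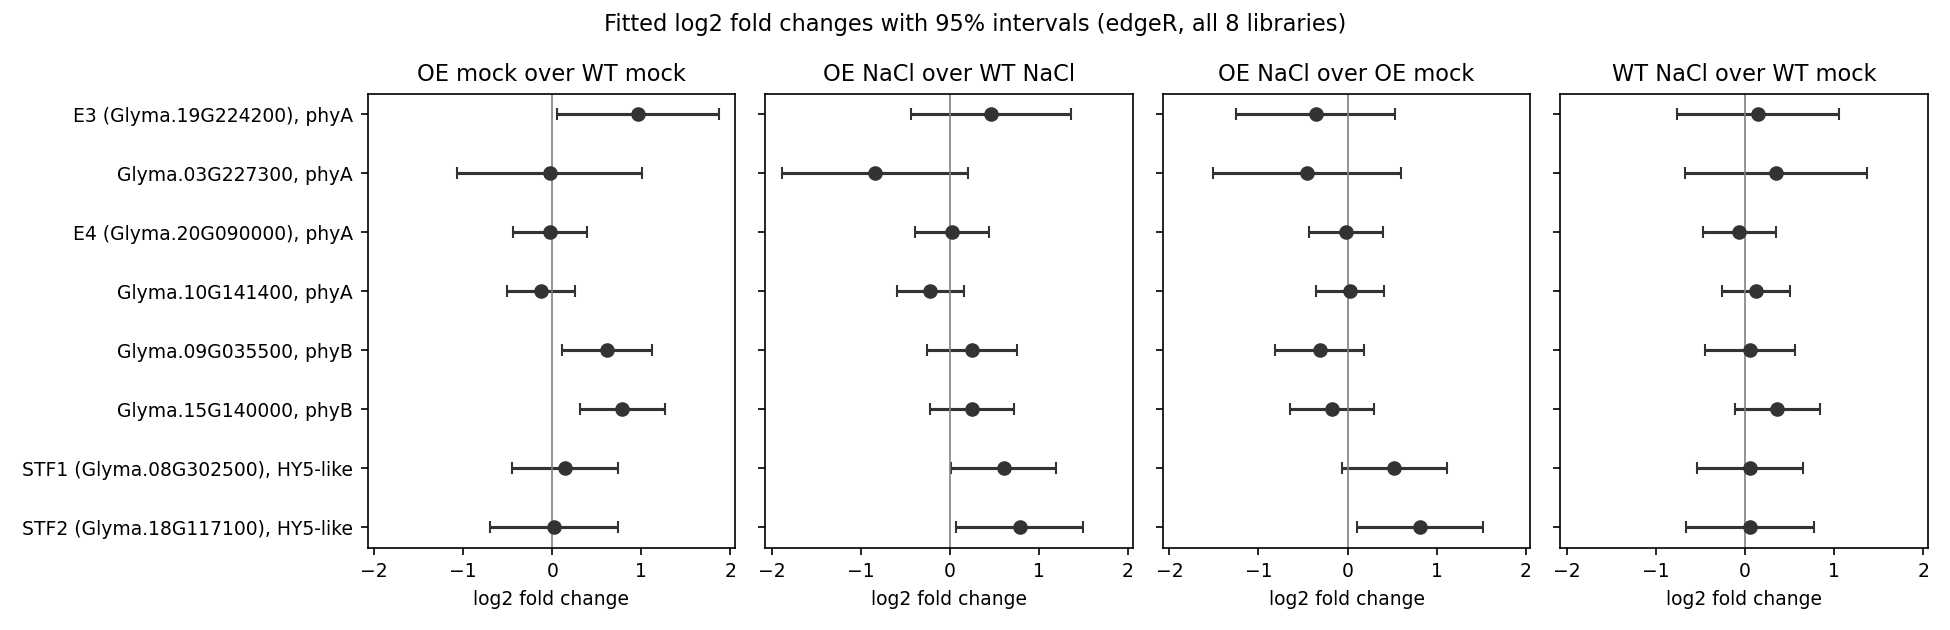
Fitted log2 fold changes of the 8 genes (points) with 95% intervals (bars) in 4 comparisons, from edgeR on all 8 libraries. E4 and Glyma.10G141400 have the narrowest intervals, and no gene passed the adjusted threshold in any panel.

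By edgeR, 0 of the 8 genes passed an adjusted p of 0.05 between genotypes in mock, where 8.92% of the 34023 tested loci did, and 0 of 8 in NaCl, where 7.89% did. DESeq2 called 1 of 8 in mock, Glyma.15G140000, against 15.1% of all loci, and 0 in NaCl, against 13.6%. Limma-voom called 0 in each, against 6.67% of all loci in mock and 6.16% in NaCl. At an unadjusted edgeR p under 0.05 there were 3 of 8 in mock (E3 and both phytochrome B loci), against 30.3% of all loci, and 2 of 8 in NaCl (STF1 and STF2), against 27.7%. OE and WT groups failed to overlap at 4 of 8 genes in mock, against 64.8% of all loci, and at 5 of 8 in NaCl, against 56.7%. Nothing particular to the 8 genes is read from these shares. The median log2 fold change of the 8 genes was 0.08 in mock and 0.25 in NaCl, against 0.03 and 0.02 over all tested loci. Leaving out 1 mock library at a time gave log2 fold changes in mock of 0.74 to 1.13 for E3. They were 0.56 to 0.67 for Glyma.09G035500 and 0.70 to 0.89 for Glyma.15G140000, and these genes did not pass. OE NaCl libraries 1 and 2 are not part of the mock comparison. When either was left out of the fit, E3 and both phytochrome B loci passed in mock, at 0.96, 0.61 and 0.78. Those fits called 22.8% of all loci without library 1 and 23.1% without library 2. In NaCl the fit without library 1 called E3 and 20.6% of all loci, and the fit without library 2 called Glyma.03G227300 and 9.84% of all loci.

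**Figure D5:**
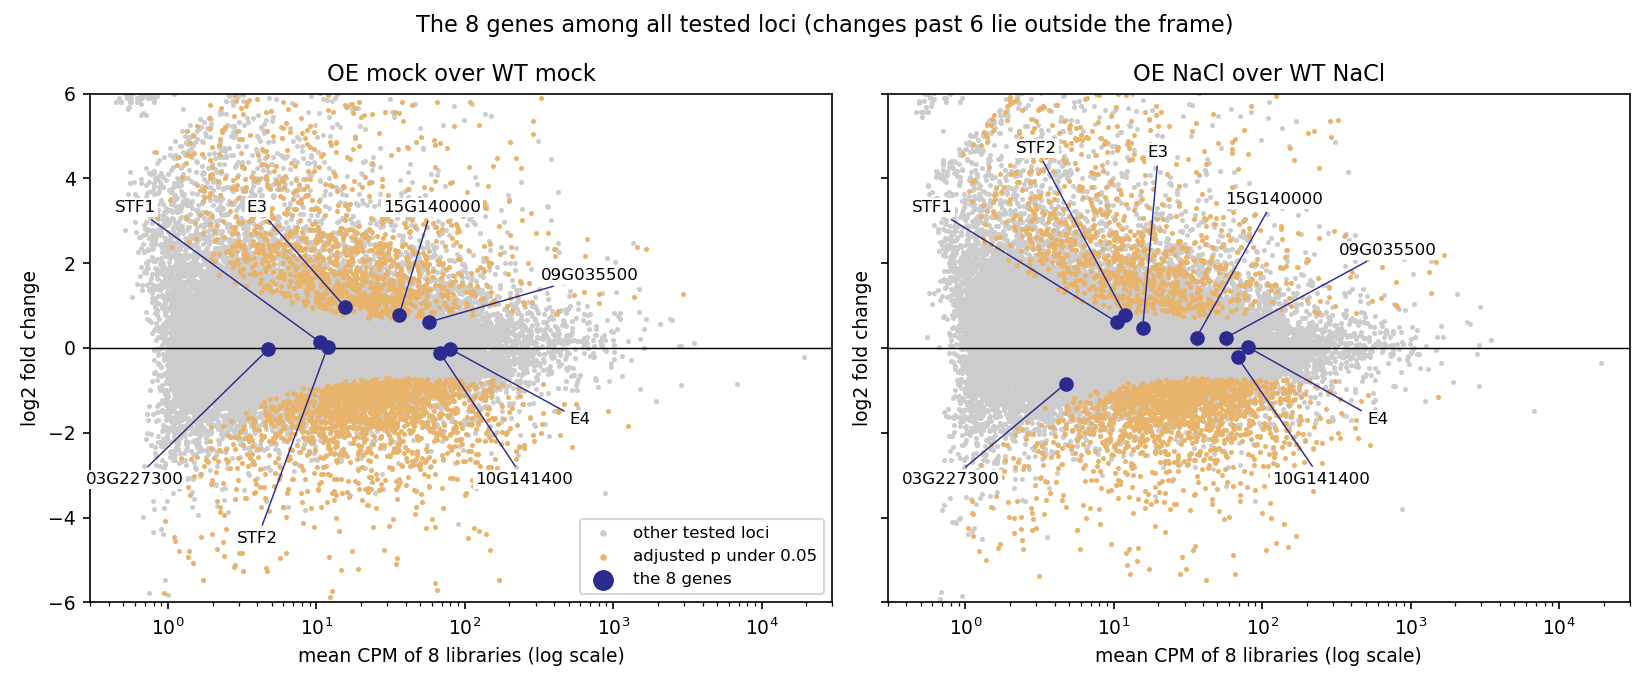
Log2 fold change against mean CPM (log scale) for all tested loci, those with an adjusted p under 0.05 in orange and the 8 genes in blue, for OE over WT in mock (left) and in NaCl (right). The 8 genes lie inside the grey cloud of loci that did not pass. Glyma.15G140000 in mock had the lowest adjusted p of the 8 (0.0582, edgeR), while 37.4% of tested loci had a larger absolute change.

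In neither genotype did any of the 8 genes pass edgeR's test of NaCl over mock, nor did any other locus (0%). Log2 fold changes of WT NaCl over WT mock were between -0.06 for E4 and 0.36 for Glyma.15G140000 (0.20 without WT NaCl library 1), and 7 of 8 were positive. Of these, Glyma.09G035500 (0.0515), STF1 (0.0572) and STF2 (0.0513) were near 0. Leaving out a single WT library took them to -0.0241, -0.0319 and -0.21 at the lowest. The WT groups did not overlap at 4 of the 8 genes, against 35% of all loci: Glyma.03G227300, Glyma.10G141400 and Glyma.15G140000 were higher and E4 was lower in NaCl. Unadjusted p-values in WT ran from 0.116 to 0.870, with 0.326% of all loci under 0.05. In OE seedlings the groups did not overlap at 2 of 8 genes, STF1 and STF2, against 16.1% of all loci. In the same comparison 1 of 8, STF2, had an unadjusted edgeR p under 0.05, against 1.49% of all loci. With no change at any locus, evenly spread p-values would put more loci than these shares under 0.05 in either genotype. The same holds for the interaction (0.679%). These tests were therefore cautious, and 0% passing does not show that NaCl had no effect. OE NaCl library 1 had the lowest value of the 4 OE libraries for E3, Glyma.03G227300 and both phytochrome B loci. The same library had the highest value of the 4 for STF1, STF2 and Glyma.10G141400.

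The gene models of a locus added little. E3 has 2 models of 3393 coding bases, which received identical counts in every library and cannot be told apart. Glyma.10G141400 was counted on its first model, of 3576 bases, except in OE NaCl library 1 and WT mock library 1, where that model held 63.2% and 55.4% of the locus and 3 models of 3393 bases with equal counts held the rest. The second listed model of STF2, of 951 against 981 bases, held 23.2% to 49.7% of its count in 6 libraries and none in OE mock library 2 and OE NaCl library 1. In 1 library only, OE mock library 2, a shorter model of E4 was listed, with 1.89% of its count. Glyma.03G227300, STF1 and Glyma.09G035500 had 1 model each. Counts of the 6 phytochrome loci were fractional in all 8 libraries, and those of STF1 and STF2 in all but 1 library each. Fractions arise where an estimator divides reads among models or loci.

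Patterns over the 8 libraries were compared as the root mean square difference of centred log2(CPM + 1) values. Among the 8 genes, each phytochrome B locus was closest to the other (0.143), STF1 to STF2 (0.244) and E4 to Glyma.10G141400 (0.127). E3 was closest to Glyma.09G035500 (0.239) rather than to its own partner, and Glyma.03G227300 to Glyma.10G141400 (0.331). Many other loci were closer than these. Among loci with a mean of at least 5 CPM, the partner had rank 663 for E4 and 860 for Glyma.10G141400. Its rank was 401 for Glyma.09G035500, 72 for Glyma.15G140000, 1173 for STF1 and 61 for STF2. The distance of 0.127 also exceeded the variation of E4 around its own mean (0.114). Among the 24369 other loci with a mean of at least 5 CPM, the closest to E3 was Glyma.09G089500 at 0.0701 and the closest to E4 was Glyma.13G296600 at 0.0477, and the files give names for neither. STF2 had only 1 locus within 0.15, against 158 for E3 and 1409 for E4. That limit lies above the variation of E4 around its own mean (0.114) and below that of STF2 (0.388). Loci that varied little therefore count as close to E4, and these counts do not compare likeness between the genes. Likeness here is a description of 8 libraries that fall into a WT and an OE set.

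Loci beside the 8 genes on their chromosomes had fold changes in both directions, and the few that were called were mostly higher in OE. Of the 80 tested neighbours, 5 on either side of each gene by ID order, 5 were called higher and 1 lower in OE mock, together near the 8.92% of all loci. In NaCl 4 were called higher and 1 lower, where 7.89% of all loci were called. E3 on chromosome 19 had 3 called neighbours of 10 in mock, 2 higher and 1 lower, and E4 on chromosome 20 had 0 of 10. Such small counts are not compared with the share of all loci.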

How the data were processed

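mRNA-seq was done on 8 soybean libraries. Expected counts per gene model were made by the authors with RSEM, per the submitters' processing notes, and an FPKM value stands beside each, per the file headers. All deposited lengths were multiples of 3 bases and are taken as coding lengths. RSEM's version, the aligner, the strand setting, the genome build and the annotation are not named in the labels or files. A model that a file does not list was set to 0.

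For each locus, expected counts of its models were added and rounded for the tests. CPM used the unrounded sums and the library total, at which 3 counts correspond to 0.417 to 0.502 CPM. FPKM was added likewise and used for levels between genes and for shares. Loci were tested with edgeR 4.0.16 in R 4.3.3 (filterByExpr, TMM and the quasi-likelihood functions glmQLFit and glmQLFTest), with a coefficient for each of the 4 groups, 4 residual degrees of freedom, and Benjamini-Hochberg adjustment over 34023 loci at a threshold of 0.05. TMM factors were 0.895 to 1.06, so fitted fold changes differ slightly from ratios of CPM. Standard errors came from the F statistic, and 95% intervals from the t distribution with the degrees of freedom of the fit. Shares were tested with SciPy 1.17.1. Alternatives were other scalings and filters, DESeq2 1.42.0, limma-voom (limma 3.58.1) with and without a weight per genotype, a replicate block, fits restricted to the 4 libraries compared, and leaving out 1 library at a time. The scripts were tested on simulated counts. The labels number the libraries as replicates without naming separate plants, so p-values measure the spread between these libraries, which may be technical.

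The 8 genes and all lists were chosen with earlier results of these data known. The planned rule described all 8 genes, named further light-signalling genes by reference description, and named the loci most alike in pattern. The reference gene table (Glycine_max_v4.0, 59048 genes) matched 0 of the 47268 locus IDs and holds no descriptions. The planned lists of light-signalling genes and of leaf and root markers were therefore not analysed, and of the loci most alike only 2, without names, are printed. Reference symbols number STF1 and STF2 differently: there, STF2 is a gene on chromosome 8.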

Additional observations from a re-analysis of the deposited data

How the results depend on the processing

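Between genotypes, 0 of the 8 genes passed in mock and 0 in NaCl with RLE or upper-quartile factors, without the abundance filter, with a floor of 1 CPM in 2 libraries and 40 counts in all, in limma-voom with and without a weight per genotype, and in fits of the 4 compared libraries alone. In mock, RLE and upper-quartile factors called 2987 and 3091 of 34023 loci, and limma-voom 2268, or 4224 with the weight. Without the filter 2941 of 47162 loci were called, with the floor 3018 of 34972, and with 4 libraries 3317 of 32002. In NaCl the counts were, in the same order, 2589, 2685, 2095, 3581, 2678, 2639 and 173, the last of 32158. Nothing particular to the 8 genes is read from 0 of 8 at such shares. DESeq2 called 1 gene in mock and 1 pair sum, and 5146 of all loci in mock and 4620 in NaCl, against 3036 and 2686 with edgeR. Fitting the 4 compared libraries alone called 173 loci between genotypes in NaCl and 15 for NaCl in WT, against 2686 and 0 with all 8. With a replicate block, 4671 loci were called in mock and 4118 in NaCl, and no call of the 8 genes changed. The labels do not say that the numbers pair libraries. Deviations from group means correlated across loci at r = 0.742 between OE mock and OE NaCl and at -0.0103 to 0.00930 between other groups, a hint from the data and not the design. A replicate block within OE libraries only, chosen after seeing the data, called 15227 of 34023 tested loci in mock and 13605 in NaCl. Among them were 3 of the 8 genes in mock and 2 of 8 in NaCl, and nothing particular to the 8 genes is read from these counts. That block also called 3 pair sums.

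Of 288 refits of the genes' log2 fold changes with all 8 libraries, 276 kept direction and side of the threshold, 6 newly passed it and 6 changed sign. Of 32 with the 4 compared libraries alone, 31 kept both and 1 changed sign. Of 256 with 1 library left out, 231 kept both, 8 newly passed and 17 changed sign. Under RLE scaling OE over WT in mock was 6.9e-05 for Glyma.03G227300 and 0.00401 for E4, and DESeq2 gave 0.00423 for E4. NaCl over mock in OE for E4 was 0.00989 under RLE scaling, 0.0275 under upper-quartile scaling, 0.00938 in DESeq2 and 0.0373 with its 4 libraries alone.

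Leaving out 1 library at a time, loci called between genotypes ranged from 1 to 8137 in mock and 0 to 7204 in NaCl, for NaCl in OE from 0 to 218 and for the interaction from 0 to 57. The lone library left in a group was assumed to vary like the other groups. In mock, 1 locus was called without WT mock library 1 or 2, 409 to 428 without a WT NaCl library and 739 without OE mock library 2. Leaving out OE NaCl library 1 gave 7967, and leaving out its fellow library 2 gave 8137. In NaCl, 0 were called without WT NaCl library 1 or 2, 495 to 516 without a WT mock library and 7204 without OE NaCl library 1. The 218 and 57 calls came without OE NaCl library 2. Of the 8 genes, 0 to 3 were called in mock and 0 to 1 in NaCl, and of the pair sums 0 to 3. OE over WT in mock ranged from -0.19 to 0.16 for Glyma.03G227300, -0.157 to 0.079 for E4 and -0.23 to 0.33 for STF2, and in NaCl from -0.23 to 0.93 for E3, -0.0603 to 0.0922 for E4 and -0.0317 to 0.47 for Glyma.09G035500. NaCl over mock in OE ranged from -1.05 to 0.11 for E3, -1.25 to 0.0562 for Glyma.03G227300 and -0.12 to 0.13 for E4, and in WT from -0.0241 to 0.126 for Glyma.09G035500, -0.0319 to 0.157 for STF1 and -0.21 to 0.36 for STF2. Sums of the E3 pair ranged from -0.56 to 0.62 between genotypes in NaCl and -1.09 to 0.10 for NaCl in OE. Sums of the E4 pair ranged from -0.0611 to 0.0974 for NaCl in OE and -0.00998 to 0.0604 for NaCl in WT. Sums of the STF pair ranged from -0.0108 to 0.18 between genotypes in mock and -0.0616 to 0.163 for NaCl in WT. The OE minus WT difference in STF1's share ranged from -2.91 to 1.71 points. The cause of these shifts was not tested.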
